A study of Mus musculus with 4 samples.

Results

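Type I interferon stimulated effector genes encode the proteins with which a cell that has sensed interferon blocks the replication of viruses. A named list of 32 such genes was taken, ordered by family (IFIT, OAS, MX, RNA and DNA sensors, the ubiquitin-like ISG15 system, nucleotide and RNA enzymes, membrane factors and other effectors). All 32 were found among the 55487 genes of the count table, and all 32 passed the filter on low counts. The RNA came from myeloid cells of mouse liver, sorted as CD45+ CD3- CD11c- CD11b+, in 2 libraries of LysM-Cre IL10R wt/wt and 2 of LysM-Cre IL10R fl/fl. LysM-Cre expresses the Cre recombinase from the lysozyme 2 gene, which is active in monocytes, macrophages and granulocytes. Both groups are labelled LysM-Cre and differ in the IL-10 receptor allele, so that the comparison asks how the RNA of these cells differs when Cre meets a receptor gene with loxP sites, between which it recombines. The labels name no receptor chain, age, sex, treatment or tumour, and do not state whether each library is its own animal. The p-values therefore measure the spread between these libraries alone, which may be technical in wt/wt. The fl/fl libraries differ in sex-linked RNA, as given below, so their spread is not technical alone.

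Type I interferons are secreted proteins that bind the receptor of Ifnar1 and Ifnar2, which activates the kinases Jak1 and Tyk2. These activate the transcription factor complex ISGF3, which holds Stat2 and Irf9 and binds the interferon-stimulated response element (ISRE) in the promoters of the effector genes. Some effector genes are also switched on directly by interferon regulatory factors after a cell has sensed foreign nucleic acid. IL-10 is a cytokine that restrains inflammatory gene expression in macrophages and monocytes through Stat3.

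The libraries held 17154042 to 26441014 counts. Il10ra, the ligand-binding chain of the IL-10 receptor, stood at 1111 and 993 CPM (counts per 1000000 counts of the scaled library) in wt/wt 1 and 2, and at 69.3 and 14.8 in fl/fl 1 and 2. It was 25.0-fold lower in fl/fl (edgeR log2 fold change −4.64 ± 0.68 SE, adjusted p = 0.0193), and the groups did not overlap. The library fl/fl 2 stood apart in sex-linked RNA, with 4298 counts of Xist and 1 count over 4 Y-linked genes, against 0 of Xist and 3455 to 6562 Y-linked counts in the other libraries. Sex therefore cannot be told apart from that library, and values without it are given below. Ptprc and Itgam, which encode CD45 and CD11b, summed to 1498 to 1598 CPM in wt/wt against 1549 to 1948 in fl/fl, while Cd3e had 2 counts in wt/wt 2 and 0 elsewhere. Itgax, which encodes the excluded marker CD11c, was nevertheless read at 158 and 134 CPM in wt/wt against 24.6 and 47.1 in fl/fl.

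Markers of several myeloid cell types moved with the genotype. Granulocyte precursor markers summed to 1042 to 1067 CPM in wt/wt against 6523 to 12360 in fl/fl, and 8 of 8 were higher. Mature neutrophil markers summed to 2081 to 2725 against 10700 to 25340, with 7 of 8 higher. Macrophage markers summed to 7974 to 8097 against 1998 to 3428, with 4 of 6 lower (Apoe, C1qa, C1qb and C1qc). Apoe made up most of that sum, at 7053 and 7186 CPM in wt/wt against 3129 and 1794 in fl/fl. Mertk and Adgre1 did not pass, and Adgre1 read 178 and 183 against 150 and 156 CPM. Plasmacytoid dendritic cells are a main source of type I interferon. Of their 7 markers Tcf4, which other cells also express, made up nearly the whole sum of 74.5 to 87.2 CPM in wt/wt against 39.5 to 73.5 in fl/fl. The other 6 lay between 0 and 0.674 CPM in every library, with Siglech, which defines these cells in the mouse, at 0 throughout, and a CD11b+ gate would leave them out. The part of these cell types in the interferon results was not tested. In sorted cells measured in bulk, fewer cells of a type and less RNA per cell cannot be told apart.

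In fl/fl, 10 of the 32 genes (31.2%) were lower and 0 were higher, while 22 did not pass. Passing means an adjusted p under 0.05 in edgeR's quasi-likelihood test with Benjamini-Hochberg adjustment over 13496 genes. Of all tested genes, 3.16% were lower and 2.69% higher by the same rule. This list and those used below were chosen with earlier results of these data known, so such shares describe the lists and test nothing. The 10 genes were all 4 IFIT genes, both MX genes, all 3 nucleotide and RNA enzymes and, of the 5 OAS genes, Oasl1. None of the 5 sensors, the 3 genes of the ISG15 system, the 2 membrane factors or the 8 other effectors passed. The median log2 fold change over the 32 genes was −0.60, beside 0.02 over all tested genes, and 28 of the 32 values were negative. At an unadjusted p under 0.05 there were 17 genes, every one of them lower in fl/fl, where 10.7% of all tested genes were lower and 11.8% higher. DESeq2 called 14 members lower, where 6.18% of all genes were, and limma-voom called 12, where 3.04% were, and neither called any of the 32 higher.

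Both fl/fl libraries lay below both wt/wt libraries for 22 of the 32 genes (68.8%), as they did for 26.3% of all tested genes. They lay above for 2 members (6.25%), Oas3 and Ifitm3, and for 28.1% of all genes. The groups overlapped for the other 8. Without wt/wt 1 or without wt/wt 2, 0 of the 32 genes and 0 of all genes passed in edgeR. In such a fit the fl/fl pair alone gives the spread, and the lone wt/wt library is assumed to vary like it. The log2 fold changes of the 10 genes stayed negative, from −1.99 for Rsad2 to −0.69 for Cmpk2 without wt/wt 1 and from −2.32 to −0.94 for the same genes without wt/wt 2. An unadjusted p under 0.05 was then found for 13 and 17 of the 32, and for 1576 and 2333 of all genes. DESeq2 without the same libraries gave the 32 genes a median of −0.43 and −0.79 (log2). Over all tested genes it was 0.02 and 0.01. Without fl/fl 1, edgeR gave the 32 genes a median of −0.41 (log2), beside −0.03 over all tested genes. Without fl/fl 2, whose sex-linked RNA stood apart, it gave −0.81, also beside −0.03.

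**Figure D1:**
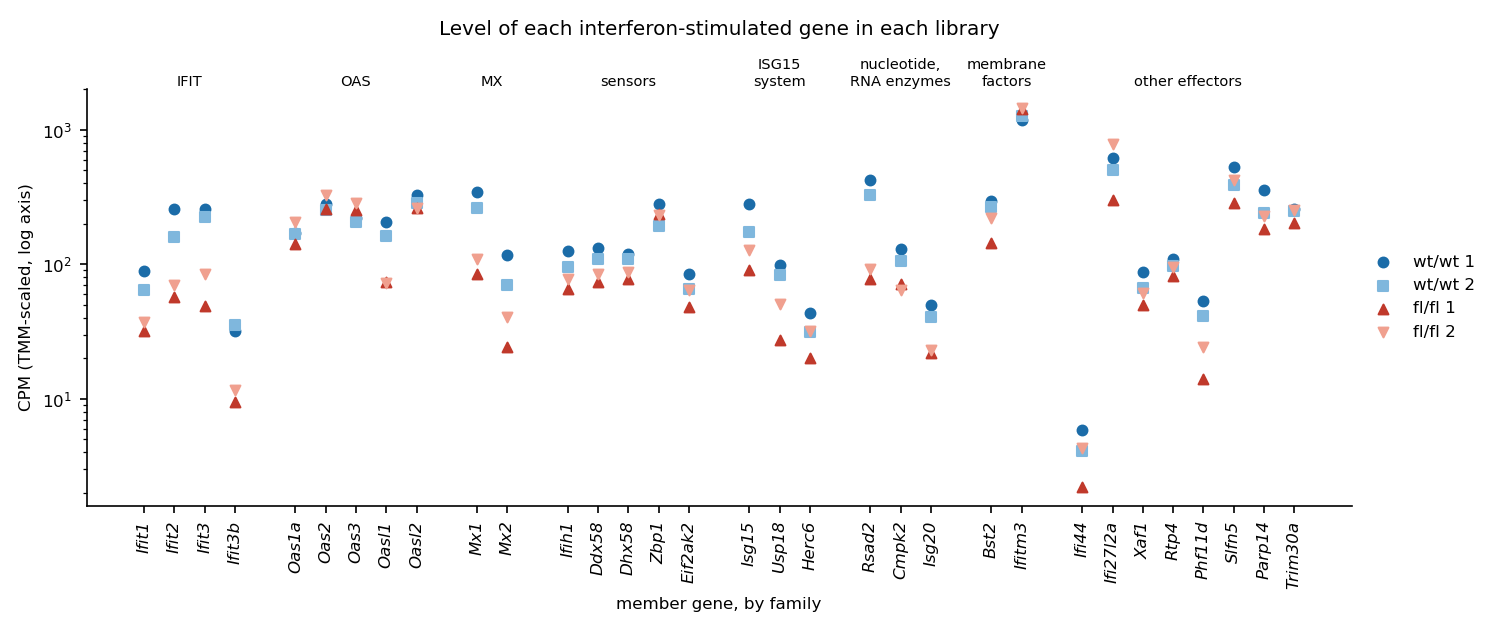
Level of each of the 32 genes in each of the 4 libraries, in TMM-scaled CPM on a log axis, grouped by family. The wt/wt libraries are circles and squares and the fl/fl libraries triangles. The fl/fl points of the IFIT, MX and nucleotide enzyme genes lie below both wt/wt points, whereas those of Oas1a, Oas2 and Zbp1 overlap with wt/wt.

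**Figure D2:**
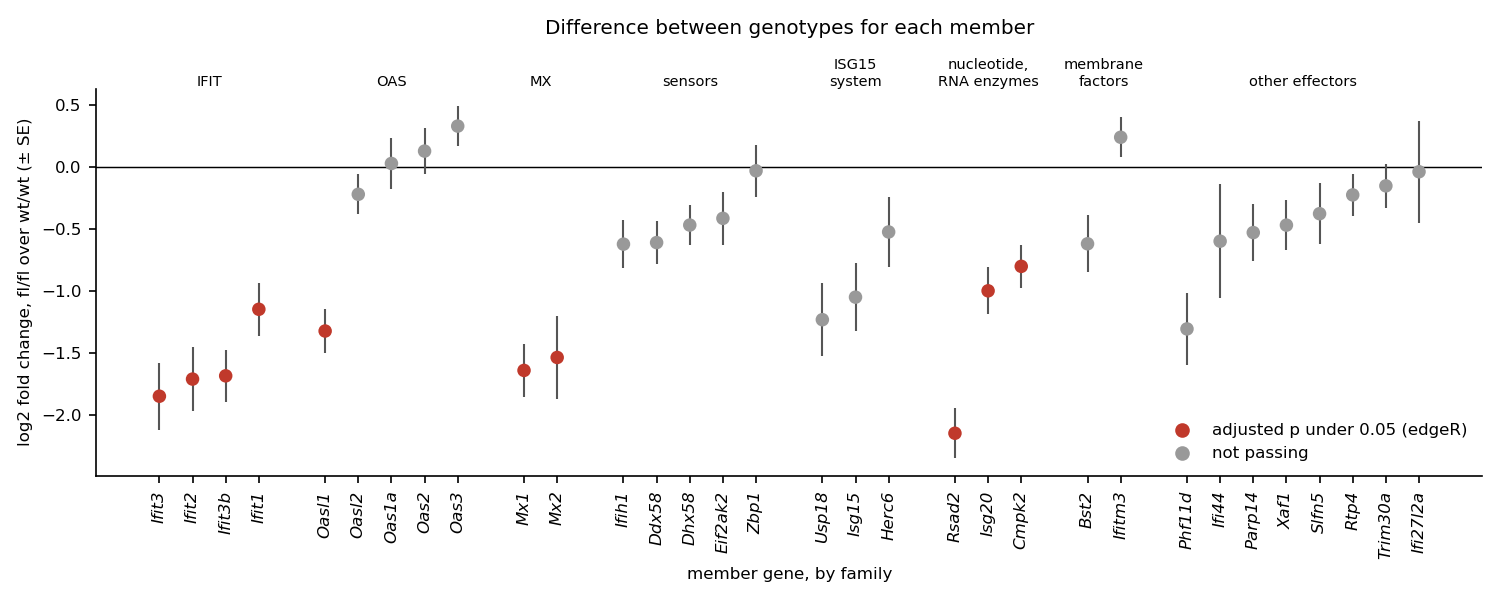
Log2 fold change of fl/fl over wt/wt for each of the 32 genes, with bars of ± 1 SE from edgeR, sorted within family. Red points are the 10 genes with an adjusted p under 0.05, which run from −2.15 for Rsad2 to −0.80 for Cmpk2.

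The IFIT genes encode proteins with tetratricopeptide repeats that bind viral RNA and hinder its translation. They lie together on chromosome 19, from 34550694 (Ifit2) to 34650009 (Ifit1) in GRCm38. All 4 were lower in fl/fl, by 2.21-fold to 3.60-fold, with a median log2 fold change of −1.70. The promoters of Ifit1, Ifit3 and Ifit3b are shown because each holds 2 matches to the ISRE core. A match is GAAA, any 2 bases and GAAA again, on either strand, in the 300 bases that run from 250 before to 50 after a RefSeq start site. Such a match was present in 3.44% of 32851 RefSeq promoter windows (GRCm38.p6). The windows of Ifit2, which was also lower, held none. The lines below give each match in capitals with 10 bases on either side, 5′ to 3′ on the plus strand, on which these genes are transcribed.
Ifit1, chr19:34640775-34640804: caggcttcagTTTCACTTTCcagtctcagt
Ifit1, chr19:34640794-34640823: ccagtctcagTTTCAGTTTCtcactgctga
Ifit3, chr19:34583363-34583392: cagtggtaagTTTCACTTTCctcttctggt
Ifit3, chr19:34583397-34583426: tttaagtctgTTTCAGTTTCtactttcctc
Ifit3b, chr19:34607759-34607788: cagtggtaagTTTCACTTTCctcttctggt
Ifit3b, chr19:34607793-34607822: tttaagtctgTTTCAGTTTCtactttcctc
The matches of Ifit3 and Ifit3b are the same over these bases, at −156 and −122 in Ifit3 and at −188 and −154 in Ifit3b, counted from the start site. Ifit3b had the smallest p of the family, and the 250 bases before its start site (chr19:34607707-34607956, plus strand) show how the matches lie in the promoter.
Ifit3b: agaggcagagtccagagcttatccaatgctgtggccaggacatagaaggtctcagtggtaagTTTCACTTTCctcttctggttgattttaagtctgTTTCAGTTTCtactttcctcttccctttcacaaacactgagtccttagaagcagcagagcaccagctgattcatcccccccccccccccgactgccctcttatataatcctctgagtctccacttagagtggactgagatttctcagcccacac

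Ifit3 stood at 258 and 223 CPM in wt/wt against 49.3 and 84.5 in fl/fl. It had the largest difference of the family (edgeR log2 fold change −1.85 ± 0.27 SE, adjusted p = 0.0191), and the groups did not overlap. Ifit3b, its near copy, stood at 32.2 and 35.5 CPM against 9.49 and 11.6 (−1.68 ± 0.21, adjusted p = 0.0138). Of the 50-base stretches of Ifit3 transcripts, 51.2% also occur in Ifit3b, so the split of reads between these genes is uncertain. Their sum does not depend on that split, and it was 290 and 259 CPM in wt/wt against 58.8 and 96.0 in fl/fl. The counting tool is not given, so shared reads may also be missing from this sum. Ifit2, which can also promote cell death, read 257 and 160 CPM in wt/wt against 57.1 and 70.4 in fl/fl (−1.71 ± 0.26, adjusted p = 0.0195). Ifit1, which binds RNA whose cap lacks 2′-O methylation, read 89.8 and 64.4 against 32.1 and 37.5 CPM (−1.15 ± 0.21, adjusted p = 0.0322). In every gene of the family the lower wt/wt library was above the higher fl/fl library, as it was for 26.3% of all tested genes.

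The MX genes encode dynamin-like GTPases that form rings around viral nucleoprotein complexes. Both lie on chromosome 16 and both were lower in fl/fl. Mx1 read 345 and 262 CPM in wt/wt against 85.0 and 110 in fl/fl, a 3.11-fold difference (edgeR log2 fold change −1.64 ± 0.21 SE, adjusted p = 0.0152). Mx2 read 118 and 69.6 CPM in wt/wt against 24.1 and 40.5 in fl/fl, a 2.90-fold difference (−1.53 ± 0.33, adjusted p = 0.0471). The groups overlapped for neither gene, and 26.3% of all tested genes likewise had both fl/fl libraries below both wt/wt libraries. Neither gene had an entry in the promoter table.

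Rsad2 encodes viperin, a radical SAM enzyme that converts CTP into a chain-terminating nucleotide, and Cmpk2, its neighbour on chromosome 12, encodes a mitochondrial kinase of pyrimidine nucleotides. Rsad2 had the largest difference of the 32 genes. It stood at 423 and 326 CPM in wt/wt against 77.2 and 92.1 in fl/fl, which is 4.42-fold lower (edgeR log2 fold change −2.15 ± 0.20 SE, adjusted p = 0.00879). Cmpk2 stood at 130 and 105 CPM against 70.7 and 64.6, which is 1.74-fold lower (−0.80 ± 0.17, adjusted p = 0.0475). For both genes the fl/fl libraries lay below both wt/wt libraries, as they did for 26.3% of all tested genes. The call of Cmpk2 was also lost without fl/fl 2, where its log2 fold change was −0.73 and its adjusted p 0.0712. Isg20, an exonuclease that degrades single-stranded RNA, read 49.4 and 40.4 CPM against 21.8 and 23.2, which is 2.00-fold lower (−0.997 ± 0.19, adjusted p = 0.0326). The windows of Cmpk2 and Isg20 held no ISRE core match. The promoter of Rsad2 is shown for its match at −120 (250 bases before the start site, chr12:26456453-26456702, written 5′ to 3′ on the minus strand, match in capitals), and was chosen after its values were seen.
Rsad2: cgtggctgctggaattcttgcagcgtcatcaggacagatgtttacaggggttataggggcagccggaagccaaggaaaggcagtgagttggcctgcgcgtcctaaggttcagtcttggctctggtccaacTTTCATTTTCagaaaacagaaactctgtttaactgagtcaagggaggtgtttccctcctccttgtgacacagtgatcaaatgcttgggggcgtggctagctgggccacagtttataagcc

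The OAS genes divided. Oas1a, Oas2 and Oas3 encode enzymes that make 2′-5′ oligoadenylates from ATP on double-stranded RNA and thereby activate the nuclease RNase L. Oasl1 and Oasl2 encode OAS-like proteins with ubiquitin-like domains, and Oasl1 is known to repress the translation of Irf7. Oasl1 was the family's gene that passed. It read 205 and 162 CPM in wt/wt against 73.5 and 73.0 in fl/fl, with no overlap, and was 2.499-fold lower (edgeR log2 fold change −1.32 ± 0.18 SE, adjusted p = 0.0158). Oasl2 read 327 and 285 CPM in wt/wt against 263 and 264 in fl/fl (−0.22 ± 0.16, adjusted p = 0.487), so that its groups did not overlap but the difference did not pass. The other 3 genes had values at or above 0: Oas1a 0.03 ± 0.21 (adjusted p = 0.957), Oas2 0.13 ± 0.18 (adjusted p = 0.748) and Oas3 0.33 ± 0.16 (adjusted p = 0.285).

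By library, Oas1a stood at 169 and 169 CPM in wt/wt against 141 and 205 in fl/fl, so the wt/wt values lay between those of fl/fl. Oas2 stood at 280 and 253 against 256 and 327 CPM, with overlap. Oas3 stood at 221 and 208 CPM in wt/wt against 252 and 287 in fl/fl, with both fl/fl libraries above. Without fl/fl 2 the log2 fold changes of Oas1a and Oas2 were −0.26 and −0.05, and without wt/wt 1 that of Oas1a was −0.02. Oas1a shares 57.6% of its 50-base stretches with Oas1g, and the sum of both genes was 200 and 204 CPM in wt/wt against 178 and 293 in fl/fl. Whether Oas1a, Oas2 and Oas3 differ from Oasl1 in their response was not tested. The promoters of Oasl1 and Oas3 are set side by side because the gene that was lower held no ISRE core match in its window and the gene with the most positive value held 1, at −75 (capitals). Oas3 was chosen after its values were seen. The lines give the 250 bases before each start site, 5′ to 3′, for Oasl1 at chr5:114922990-114923239 on the plus strand and for Oas3 at chr5:120777660-120777909 on the minus strand.
Oasl1: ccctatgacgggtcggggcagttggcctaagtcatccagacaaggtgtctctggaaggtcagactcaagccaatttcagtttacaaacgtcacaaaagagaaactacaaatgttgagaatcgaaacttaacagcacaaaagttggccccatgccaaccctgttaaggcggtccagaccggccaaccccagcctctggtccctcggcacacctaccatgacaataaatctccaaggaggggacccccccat
Oas3: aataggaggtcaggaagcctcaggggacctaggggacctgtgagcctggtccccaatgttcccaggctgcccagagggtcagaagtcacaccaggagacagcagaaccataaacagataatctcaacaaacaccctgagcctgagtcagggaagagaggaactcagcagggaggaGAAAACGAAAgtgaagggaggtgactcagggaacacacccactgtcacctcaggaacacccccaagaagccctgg

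Among the sensors of foreign nucleic acid, 0 of 5 passed in edgeR, and DESeq2 called Ddx58 alone and limma-voom none. In edgeR 3 were lower at an unadjusted p under 0.05, beside 10.7% of all tested genes. DESeq2 called 6.18% of all genes lower. All 5 log2 fold changes were negative, with a median of −0.47. Both fl/fl libraries lay below both wt/wt libraries for 4 of them (80%), beside 26.3% of all tested genes. Ddx58 encodes RIG-I, which detects RNA with a 5′ triphosphate. It read 132 and 109 CPM in wt/wt against 73.5 and 84.6 in fl/fl (edgeR log2 fold change −0.61 ± 0.17 SE, adjusted p = 0.0949; DESeq2 adjusted p = 0.0347). Ifih1 encodes MDA5, the sensor of long double-stranded RNA, and read 126 and 94.9 against 65.5 and 77.8 CPM (−0.62 ± 0.20, adjusted p = 0.122). Dhx58, or LGP2, modulates both and read 119 and 110 against 77.1 and 88.2 CPM (−0.47 ± 0.16, adjusted p = 0.143). These 3 helicases were lower by 1.38-fold to 1.54-fold, less than any of the 10 genes that passed. Eif2ak2, the kinase PKR that halts translation on double-stranded RNA, read 84.4 and 65.0 against 48.4 and 63.8 CPM (−0.41 ± 0.21, adjusted p = 0.314), and fl/fl 2 was just below wt/wt 2. Zbp1, a sensor of Z-form nucleic acid that triggers cell death, read 281 and 194 CPM in wt/wt against 235 and 231 in fl/fl (−0.03 ± 0.21, adjusted p = 0.959), so both fl/fl values lay between those of wt/wt. The ISRE core match of Ddx58, shown because this sensor had the smallest p, lies just after its start site, at +3 (minus strand, match in capitals with 10 bases on either side).
Ddx58, chr4:40239804-40239833: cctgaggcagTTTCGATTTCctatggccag

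The ubiquitin-like ISG15 system comprised Isg15, which is joined to other proteins, Herc6, the main mouse ligase for this step, and Usp18, the protease that removes it and also blocks signalling at the Ifnar2 chain. By edgeR 0 of 3 passed, and 2 had an unadjusted p under 0.05, both lower, beside 10.7% of all tested genes. DESeq2 called Isg15 and Usp18 lower, and limma-voom called Usp18 lower. Of all genes, DESeq2 called 6.18% lower and limma-voom 3.04%. Isg15 read 279 and 174 CPM in wt/wt against 90.8 and 128 in fl/fl, a 2.07-fold difference (edgeR log2 fold change −1.05 ± 0.27 SE, adjusted p = 0.0780; DESeq2 adjusted p = 0.00438). Usp18 read 99.2 and 83.6 against 27.2 and 50.7 CPM, a 2.35-fold difference (−1.23 ± 0.30, edgeR adjusted p = 0.0630; DESeq2 adjusted p = 0.00162; limma-voom adjusted p = 0.0464). The groups did not overlap for either gene, and 26.3% of all tested genes likewise had both fl/fl libraries below both wt/wt libraries. Herc6 read 43.8 and 31.4 against 20.2 and 32.1 CPM (−0.52 ± 0.28, adjusted p = 0.331), with fl/fl 2 above wt/wt 2. Isg15 is shown for its 3 overlapping ISRE core matches between −78 and −57, the most of any member (minus strand, matches in capitals), beside Oas1a, whose level overlapped between the groups and which held 2 overlapping matches between −20 and −5 (minus strand).
Isg15, chr4:156200865-156200906: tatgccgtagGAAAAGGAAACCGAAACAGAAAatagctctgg
Oas1a, chr5:120907520-120907555: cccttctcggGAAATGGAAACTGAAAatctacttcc

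Neither membrane factor passed in edgeR, DESeq2 or limma-voom. In edgeR 1 was lower at an unadjusted p under 0.05, as were 10.7% of all tested genes. Bst2, or tetherin, holds budding virus particles at the cell surface. It read 296 and 266 CPM in wt/wt against 144 and 222 in fl/fl (edgeR log2 fold change −0.62 ± 0.23 SE, adjusted p = 0.173), with both fl/fl libraries below. Ifitm3, which blocks the fusion of viruses with endosomes, read 1178 and 1266 CPM in wt/wt against 1430 and 1459 in fl/fl (0.24 ± 0.16, adjusted p = 0.446), with both fl/fl libraries above. Per length it was the most abundant of the 32 genes, at a wt/wt mean of 1802 CPM per kb of exon, followed by Ifi27l2a at 1202, Bst2 at 311 and Isg15 at 299.

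By edgeR 0 of the 8 other effectors passed, and 1 was lower at an unadjusted p under 0.05, as were 10.7% of all tested genes. DESeq2 and limma-voom each called Phf11d lower, where they called 6.18% and 3.04% of all genes lower. Their 8 values were negative, with a median of −0.42, and the groups overlapped for 4. Both fl/fl libraries lay below both wt/wt libraries for the other 4 (50%), beside 26.3% of all tested genes. Phf11d, a PHD finger protein, read 53.7 and 40.9 CPM in wt/wt against 14.1 and 24.2 in fl/fl, 2.47-fold lower without overlap (edgeR log2 fold change −1.30 ± 0.29 SE, adjusted p = 0.0517; DESeq2 adjusted p = 0.00107; limma-voom adjusted p = 0.0444). Parp14, an ADP-ribosyltransferase, read 355 and 240 against 183 and 230 CPM (−0.53, adjusted p = 0.244). Xaf1, which binds the apoptosis inhibitor XIAP, read 87.1 and 66.3 against 49.7 and 61.2 CPM (−0.47, adjusted p = 0.239). Both genes had fl/fl 2 slightly below wt/wt 2, as did Rtp4, a chaperone for the surface transport of receptors, at 110 and 97.2 against 81.9 and 95.6 CPM (−0.22, adjusted p = 0.494).

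Slfn5, of the Schlafen family, read 526 and 391 against 283 and 424 CPM (−0.38, adjusted p = 0.438, edgeR). Trim30a, a ring-finger protein that dampens Toll-like receptor signalling, read 258 and 249 against 202 and 254 CPM (−0.15, adjusted p = 0.683). In both, fl/fl 2 lay between the wt/wt libraries. Ifi44 was the scarcest member, at 5.84 and 4.09 against 2.21 and 4.34 CPM (−0.60 ± 0.46, adjusted p = 0.509). Ifi27l2a, a small mitochondrial membrane protein, had fl/fl 1 below and fl/fl 2 above both wt/wt libraries, at 615 and 498 CPM in wt/wt against 299 and 785 in fl/fl (−0.04 ± 0.41, adjusted p = 0.974). Leaving out fl/fl 1 gave 0.46 (log2), and leaving out fl/fl 2 gave −0.89, where it passed (adjusted p = 0.0331).

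The libraries within a group differed in a shared direction across the genes. In wt/wt, library 2 exceeded library 1 for 2 of the 32 genes, with a median log2 ratio of −0.32. In fl/fl, library 2 exceeded library 1 for 29 of the 32, with a median of 0.32. Set against the wt/wt mean of each gene, the median member stood at 0.15 and −0.17 (log2) in wt/wt 1 and 2 and at −0.82 and −0.37 in fl/fl 1 and 2. The summed level of the 32 genes was 7551 and 6342 CPM in wt/wt against 4738 and 6005 in fl/fl, and Ifitm3 was the largest part of it in every library.

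**Figure D3:**
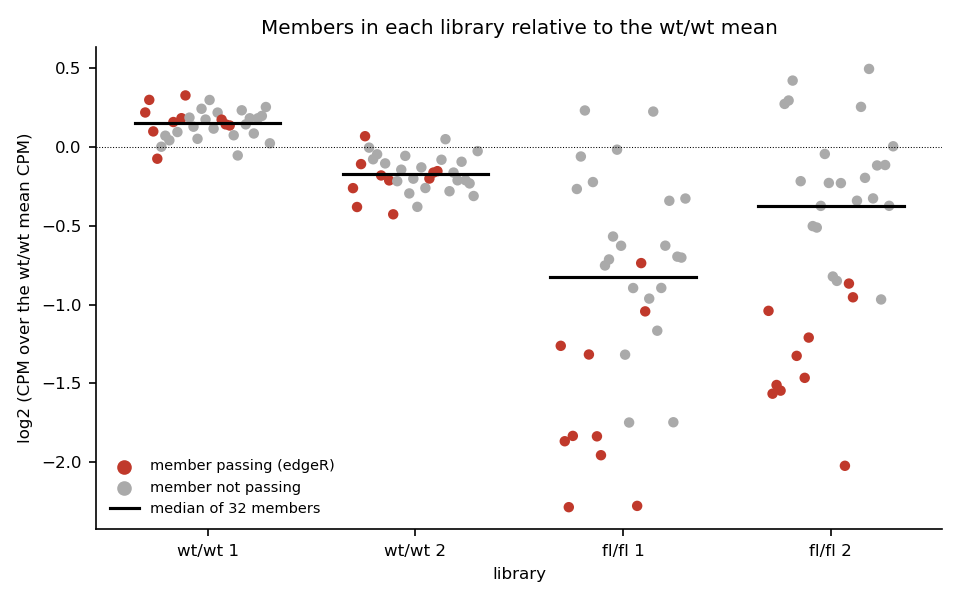
Each point is 1 of the 32 genes in a library, as the log2 ratio of its CPM to the mean CPM of the 2 wt/wt libraries; the horizontal bars are medians over the 32 genes and red points the 10 genes that passed in edgeR. The medians are 0.15, −0.17, −0.82 and −0.37 from left to right, and the 10 red genes lie below 0 in both fl/fl libraries.

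Of the 32 genes, 23 were matched by symbol in the RefSeq promoter table, and 14 of these (60.9%) held an ISRE core match in at least 1 window. The share was 3.99% of the 27025 genes in the table. Among the matched genes that were lower in fl/fl, 4 of 8 held one, and among those that did not pass, 10 of 15. The letters TTCNNNGAA of GAS, another interferon response motif, occurred in windows of 6 of the 23 genes and of 9.55% of all genes. In Bst2 and Ifitm3 a GAS match overlapped an ISRE core match. Both motifs were searched on both strands. A match is a string of letters and no evidence of binding, and its absence says only that the letters are not in this window.

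**Figure D4:**
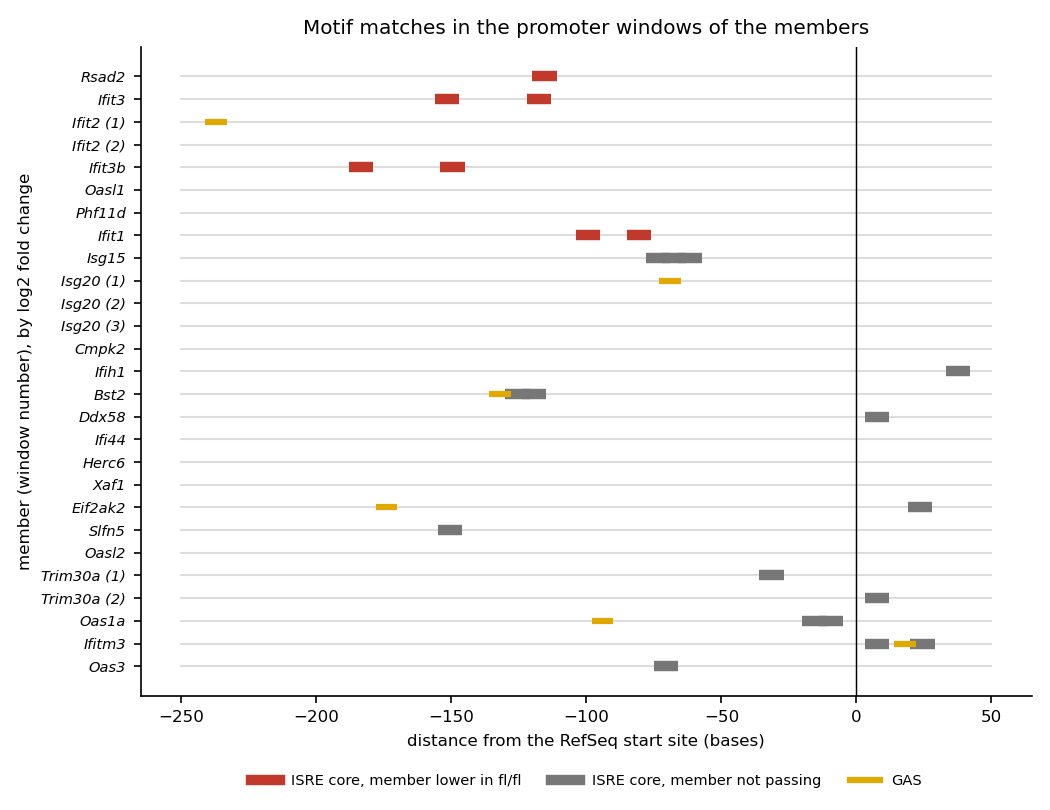
Position of ISRE core and GAS matches in the RefSeq promoter windows of the 23 matched genes, in bases from the start site, with genes sorted from the most negative log2 fold change at the top; a number in brackets tells the windows of a gene apart. Matches occur both in genes that were lower in fl/fl (red) and in genes that did not pass (grey), including Oas3 at the bottom.

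Upstream of the effectors, the RNA of the interferons was scarce. Of 18 type I interferon genes 12 were at 0 in every library and only Ifnb1 had enough counts for a test. Ifna5, Ifnk, Ifna2 and Ifna1 had 14, 10, 4 and 2 counts in wt/wt 1 and 0 in wt/wt 2. In fl/fl, Ifna1 had 1 count in fl/fl 1 and Ifnz had 3 in fl/fl 2. Ifnb1, which encodes interferon beta, had 82, 10, 8 and 11 counts in wt/wt 1, wt/wt 2, fl/fl 1 and fl/fl 2, or 3.68, 0.368, 0.466 and 0.628 CPM (edgeR log2 fold change −1.87 ± 1.08 SE, adjusted p = 0.368). The level in wt/wt 1 stood above the rest, and wt/wt 2 was below both fl/fl libraries. Of 5 interferon receptor genes, Ifnar1, a chain of the type I receptor, was lower, at 218 and 182 CPM in wt/wt against 103 and 117 in fl/fl (−0.86 ± 0.17, adjusted p = 0.0381). Its partner Ifnar2 read 114 and 110 against 97.1 and 91.0 CPM (−0.25, adjusted p = 0.379), also without overlap. None of the 5 was higher in edgeR or limma-voom, and DESeq2 called Ifnlr1, of the type III receptor, higher.

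By edgeR none of the 8 receptor kinases and transcription factors passed, while DESeq2 called Irf7 lower and limma-voom none. In edgeR 3 were lower at an unadjusted p under 0.05, beside 10.7% of all tested genes. Stat2 read 477 and 297 CPM in wt/wt against 250 and 269 in fl/fl (edgeR log2 fold change −0.58, adjusted p = 0.220). Irf9 read 184 and 163 against 136 and 157 CPM (−0.24, adjusted p = 0.450), and Irf7, which amplifies interferon production, 514 and 446 against 268 and 358 (−0.62, adjusted p = 0.126). These 3 genes had both fl/fl libraries below both wt/wt libraries. So had 4 of the 8 in all (50%), beside 26.3% of all tested genes. Irf1 read 914 and 401 against 758 and 820 CPM (0.26, adjusted p = 0.736), with wt/wt on either side of fl/fl. Of 5 negative regulators 0 passed in edgeR, DESeq2 or limma-voom, with 1 at an unadjusted p under 0.05, among them Socs1, which inhibits the receptor kinases, at 58.4 and 31.5 against 28.2 and 18.9 CPM (−0.93, adjusted p = 0.162). Of 15 genes that lead to interferon production 0 passed in edgeR or limma-voom. DESeq2 called 4 lower (Tlr9, Cgas, Mavs and Irf8) and 1 higher (Myd88), where it called 6.18% of all genes lower. In edgeR 6 of the 15 had an unadjusted p under 0.05, 5 lower and 1 higher, beside 10.7% and 11.8% of all tested genes.

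Relatives of the 32 genes within the same families were read from a separate list of 40 paralogues, of which 30 could be tested. They had a median log2 fold change of −0.02, with 2 lower (6.67%) and 4 higher in edgeR. Of all tested genes, edgeR called 3.16% lower and 2.69% higher. DESeq2 called 7 paralogues lower and 5 higher, and limma-voom 3 and 4. Of all genes, DESeq2 called 6.18% lower and limma-voom 3.04%. Both lower genes belong to families described above. Ifit1bl1, next to the IFIT genes, read 30.5 and 23.1 CPM in wt/wt against 7.40 and 9.30 in fl/fl (edgeR log2 fold change −1.68 ± 0.25 SE, adjusted p = 0.0197). Phf11a read 24.9 and 20.5 against 7.80 and 10.2 CPM (−1.34 ± 0.25, adjusted p = 0.0322). Of the 4 higher genes 3 are relatives of Ifitm3.

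Ifitm1 read 36.4 and 53.3 CPM in wt/wt against 430 and 161 in fl/fl (edgeR log2 fold change 2.72 ± 0.46 SE, adjusted p = 0.0252). Ifitm6 read 188 and 228 against 1112 and 494 CPM (1.95 ± 0.37, adjusted p = 0.0335), and Ifitm2 read 86.7 and 93.6 against 177 and 174 (0.96 ± 0.15, adjusted p = 0.0215). For Ifitm1 and Ifitm6 the level in fl/fl 1 was above that in fl/fl 2, as were the summed granulocyte precursor markers (12360 against 6523 CPM) and neutrophil markers (25340 against 10700). The part of those cells was not tested. Of the exonic length of Ifitm2, 40.9% is shared with the model Gm45717. The fourth was Trim30b, at 50.1 and 64.2 against 105 and 99.2 CPM (0.84 ± 0.18, adjusted p = 0.0462).

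**Figure D5:**
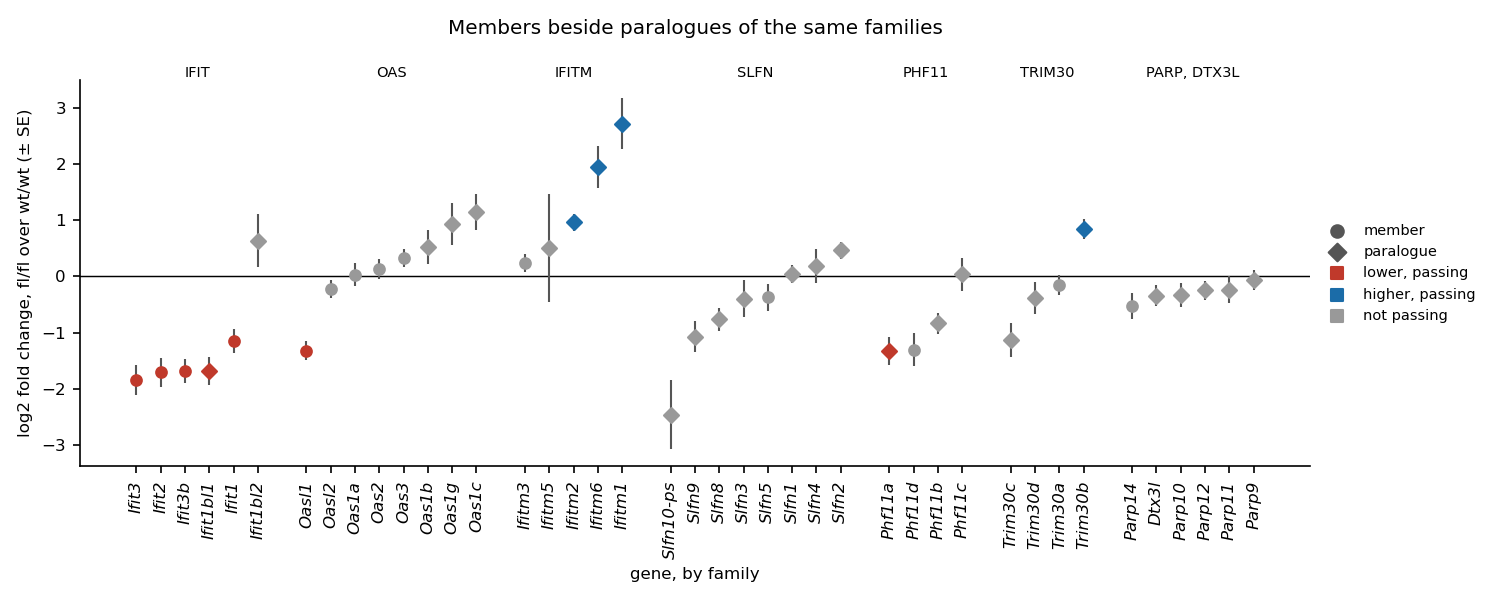
Log2 fold change of fl/fl over wt/wt, with bars of ± 1 SE from edgeR, for members (circles) and tested paralogues (diamonds) in 7 families, sorted within family. The IFIT genes that passed are lower (red) and the IFITM genes that passed are higher (blue), while no paralogue in the OAS, SLFN and PARP families passed in edgeR (grey).

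A further list held 47 interferon-stimulated genes that were neither members nor listed paralogues, and 46 of them were tested. They had a median log2 fold change of −0.43, with 38 values negative, 3 genes lower and 0 higher by edgeR. The 3 lower genes are 6.52% of the 46, beside 3.16% of all tested genes. At an unadjusted p under 0.05, 21 were lower and 2 higher, beside 10.7% and 11.8% of all genes. DESeq2 called 14 lower and 1 higher (Samhd1), and limma-voom 3 and 0. Over all genes, DESeq2 called 6.18% lower and limma-voom 3.04%. Ccl12, a chemokine for monocytes, read 58.7 and 25.3 CPM in wt/wt against 7.22 and 4.05 in fl/fl (−2.90 ± 0.47 SE, edgeR adjusted p = 0.0223). Cxcl10, a chemokine for T cells, read 637 and 347 against 185 and 209 CPM (−1.32 ± 0.29, adjusted p = 0.0487). Ifi208, of the cluster of DNA-sensing PYHIN genes, read 37.5 and 26.1 against 10.0 and 11.1 CPM (−1.59 ± 0.25, adjusted p = 0.0212). The fl/fl libraries were below both wt/wt libraries for 26 of the 46 (56.5%), beside 26.3% of all genes.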

How the data were processed

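Poly(A)-selected RNA of sorted liver myeloid cells was sequenced in 4 libraries. The authors deposited 1 table of whole-number raw counts per Ensembl gene. STAR 2.5.0, Trimmomatic 0.33, FastQC 0.11.5 and the build GRCm38 were used, per the submitters' processing notes. Which tool counted the reads, whether by strand and on which annotation is not given in the sources used here, so reads of overlapping genes (Herc6 with Gm45193, Rtp4 with Gm45338, and antisense partners of Oasl1, Dhx58, Usp18 and Slfn5) cannot be told apart.

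Symbols came from GENCODE M21, which named 55227 of 55487 genes. Counts were fitted with edgeR 4.0.16 (R 4.3.3; filterByExpr with a minimum count of 10, TMM, quasi-likelihood F test, no covariates), which tested 13496 of 22696 genes with any count. P-values are two-sided and adjusted over all tested genes. Fold changes use a prior count of 0.125, and the SE of a log2 fold change is its size divided by the root of F. Values are in TMM-scaled CPM. The biological coefficient of variation was 25.5%. An exact permutation test of 2 against 2 cannot go below p = 0.333. The floor of 3 counts was 0.111 to 0.175 CPM, for counting error only.

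DESeq2 1.42.0, limma-voom (limma 3.58.1), other scalings, other filters and leaving out each library were alternatives; DESeq2 without each library was added after seeing the data. The steps were tested on simulated data. The 32 genes and the other lists were chosen with earlier results of these data known. All 32 members are named, from the other lists those that passed and a fixed set of pathway genes. A gene of the pathway lists is not reported here. Herc5, Usp41 and Mnda of the further lists had no identifier in GENCODE M21. Promoter windows are from RefSeq (GRCm38.p6), read on the gene's strand, and had no entry for 9 members (Oas2, Mx1, Mx2, Dhx58, Zbp1, Usp18, Ifi27l2a, Rtp4, Parp14).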

Additional observations from a re-analysis of the deposited data

How the results depend on the processing

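Without 1 library in turn, edgeR called 0 to 14 of the 32 genes lower, 0 to 666 of all genes lower and 0 to 811 higher, with 0 in each count reached without wt/wt 1 and without wt/wt 2. DESeq2 without wt/wt 1 called 6 members lower. Leave-one-library-out ranges of the log2 fold change crossed 0 for Oas1a (−0.26 to 0.24), Oas2 (−0.052 to 0.26), Zbp1 (−0.27 to 0.22) and Ifi27l2a (−0.89 to 0.46); these include Oas1a at −0.02 and Ifi27l2a at 0.08 without wt/wt 1. The other 28 members kept their sign in all 11 alternatives, and the median of the 32 ran from −0.81 to −0.41 over the libraries left out. Without the filter on low counts, 1071 genes were lower, 1017 higher and 16 members lower; DESeq2 gave 834 lower, 784 higher and 14 members lower. All 10 calls were kept with RLE factors (11 members), library size only (12), a filter at 1 CPM (11), limma-voom (12), DESeq2 and no filter. Of the 22 genes that did not pass, 15 passed in none of the 11. The labels share replicate numbers, but same-numbered libraries did not deviate together (correlation 0.0219 over 13496 genes). With the replicate block, 602 genes were higher and 12 members lower, the added ones being Usp18 and Phf11d. Depth limits Ifi44 most, the scarcest member, at 2.21 to 5.84 CPM.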
